A study of Mus musculus with 2 samples.

Results

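The mitochondrial respiratory chain genes described here encode the subunits of complexes I to V, cytochrome c, tissue isoforms of complex IV subunits and several assembly factors of complex I. They were chosen by symbol alone: a probe set belonged to the group if its only gene symbol in the array's annotation began with Nduf, Uqcr or Atp5, began with Cox followed by a digit from 4 to 8, or was Sdha, Sdhb, Sdhc, Sdhd or Cycs. This gave 183 probe sets for 91 genes, out of 34945 probe sets with a single symbol for 18193 genes. A further 10 probe sets that list such a gene beside another gene were left out.

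RNA came from vascular cells that were flow-sorted from the right lung lobes of C57BL/6J mice after resection of the left lobe (pneumonectomy), and it was hybridised to 1 Affymetrix array for old and 1 for young mice. Both groups had been operated on, so the comparison is between ages after surgery and holds no unoperated mice. The sources used here state neither the ages nor the time after surgery, the sorting markers or how many mice gave each sample. With 1 array per group there is no replicate check and no test of any difference below. The number of arrays limits the precision, and differences are described by their size alone.

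The respiratory chain sits in the inner mitochondrial membrane. Complex I takes electrons from NADH and complex II from succinate, ubiquinone carries them to complex III, cytochrome c to complex IV, and complex IV passes them to oxygen, while the proton gradient built by complexes I, III and IV drives ATP synthesis by complex V. Most subunits are encoded in the nucleus, endothelial cells are known to obtain much of their ATP from glycolysis, and several complex IV subunits have isoforms restricted to striated muscle, testis or lung.

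Values are MAS5 signals scaled so that the median probe set above the floor had the same signal on both arrays, and every log2 ratio is old minus young. The floor, 73.7 signal units, is the higher of the 2 array medians after scaling, that of the old array. Signals below it are treated as having no order. A gene is represented by its brightest probe set, a difference is counted from 2-fold, and for a gene that reached the floor on a single array the fold is taken against the floor and written as a lower bound. Signals of different probe sets are not compared with each other, except to say how bright a group's probe sets are. The scaling removed a median log2 ratio of -0.13 from the deposited values. For a gene above the floor on both arrays, a positive ratio smaller than this shift is therefore negative in the deposited values.

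The 2 arrays differed in cell type markers. Pan-endothelial markers were present on both (Pecam1 at 6049 on the old array and 6239 on the young, Cdh5 at 12534 and 9951), and the summed signal of the 8 markers was 87844 and 69067. Of these 8, 2 passed 2-fold in opposite directions, Eng (22308 and 8777, higher on the old array) and Emcn (4980 and 10788, higher on the young). Markers of leukocytes (8 of 8), fibroblasts (6 of 6 measured), hepatocytes (7 of 7) and pericytes or smooth muscle (8 of 10 measured) exceeded 2-fold in favour of the old array. Lymphatic endothelial markers (5 of 6) and mitosis genes (5 of 5) exceeded it in favour of the young array. The old and young labels could not be checked against any gene. In such bulk RNA, fewer cells of a type and less RNA per cell cannot be told apart.

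The respiratory chain genes had nearly the same signal on both arrays. Of the 91 genes, 88 were above the floor on at least 1 array, 88 of them on the old and 85 on the young. Among these 88, 2 favoured the old array by 2-fold or more (Cox6a2 and Cox8b), 2 favoured the young (Atp5md and Ndufaf1), and 84 differed by less. The background for the same rule was 1937 of 12105 genes on the old array (16.0%) and 1366 on the young (11.3%). The genes not measurable on either array were Ndufb4 (42.6 on the old array and 41.5 on the young), Cox7b2 (11.8 and 4.76) and Ndufa4l2 (6.83 and 13.5).

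The spread of the members was narrow beside that of all genes. Their median log2 ratio was 0.07, with quartiles at -0.21 and 0.24 and an SD across genes of 0.44, against a median of 0.03, quartiles at -0.46 and 0.59 and an SD of 1.35 over all 12105 measured genes. Differences of less than 1.5-fold were seen for 85.2% of the members and 54.3% of all genes. The narrow spread is not particular to the members among the mitochondrial groups described below. The SD was 0.41 for tricarboxylic acid cycle genes, 0.37 for outer membrane, import and matrix genes and 0.45 for mitochondrial ribosomal protein genes. It was wider for assembly factors outside the rule (0.56) and coenzyme Q synthesis (0.60). Across genes, which are not independent replicates, the log2 signals of both arrays correlated at r = 0.970 for the members and 0.796 for all genes, as a description.

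Most members have bright probe sets, so they were also set against genes whose mean signal reached 16 times the floor (1179 signal units), a level chosen after the data had been seen. Of the 73 members this bright, 0 were 2-fold higher on the old array, 1 on the young, and 90.4% lay within 1.5-fold, with an SD of 0.36. Of all 3938 genes this bright, 474 were 2-fold higher on the old array (12.0%) and 282 on the young (7.16%), 61.8% lay within 1.5-fold, and the SD was 1.08. The members' spread was thus also the smaller among bright genes.

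The sign of the members' median is not settled by these data. It was 0.07 as scaled here, -0.06 in the deposited values, -0.26 after quantile normalization and -0.13 after loess on mean signal. The number of members lower on the old array went with it, from 37 of 88 as scaled here to 50 in the deposited values and 64 after quantile normalization. The split of 2 calls in favour of the old array and 2 of the young became 2 and 3 in the deposited values, 2 and 4 after quantile normalization and 2 and 1 after loess. The differences between group medians given below were smaller after quantile normalization and loess (for complex IV minus the complex I assembly factors, 0.56 as scaled here, 0.21 and 0.17).

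**Figure D1:**
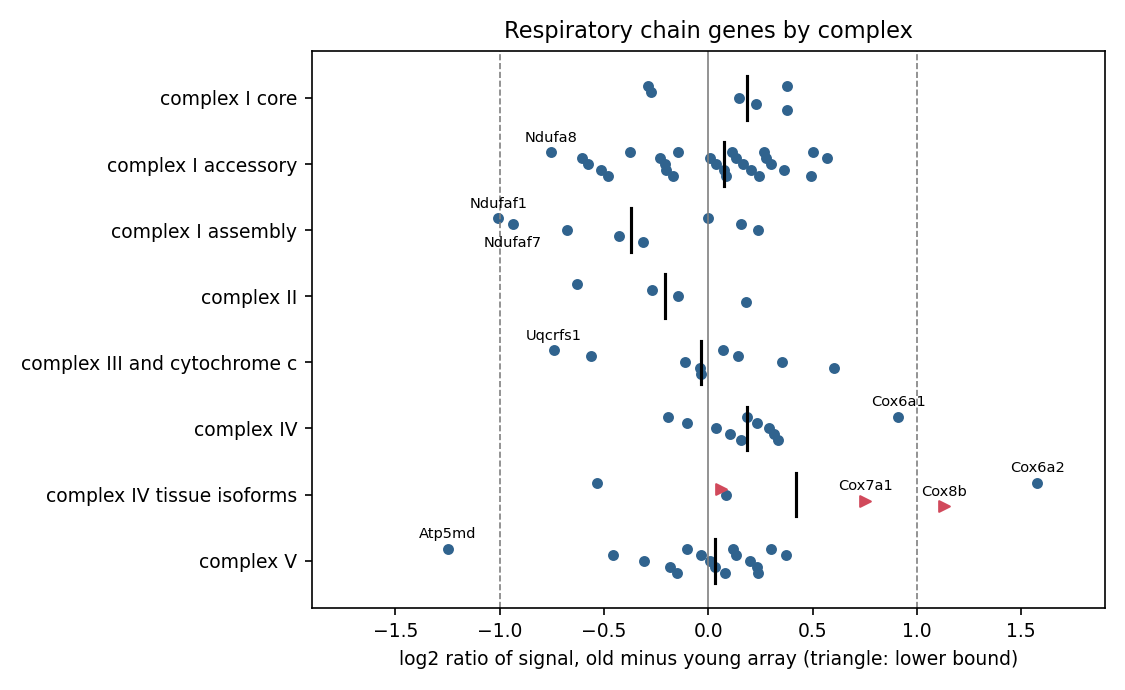
Log2 ratio of signal, old minus young, for the 88 measured genes, in rows by complex; each point is 1 gene, a triangle is a lower bound, a black bar is the median of the row and dashed lines mark 2-fold. All rows centre within 0.42 of 0, and Atp5md, Ndufaf1, Cox8b and Cox6a2 lie beyond the dashed lines.

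The region upstream of the start site is shown for the members just inside and just outside 2-fold and for Cox8a, the ubiquitous counterpart of Cox8b, so that their motifs can be compared. Cox6a2 is not among them. The sequences are from RefSeq on GRCm38.p6, 5′ to 3′ on the gene's strand, and end just before the start site. Capitals mark matches, on either strand, to letters known to be bound by nuclear respiratory factor 1 (NRF1, with GCGCA, then any base, then GCGC), by ETS factors such as GABP (CCGGAAG) and by YY1 (AAGATGGC), to the CCAAT box (CCAAT), to the TATA box (TATAAA), to the muscle factor MEF2 (CTA, then any 4 bases, then TAG) and to a muscle E-box (CAGCTG). Positions count from the match's 5′ base to the start. Cox6a1 (chr5:115348959-115349208, minus strand) holds NRF1 letters 162 and 117 bases before the start, CCAAT letters at 74 and ETS letters at 16. Cox8a (chr19:7217617-7217866, minus strand) holds CCAAT letters at 171. Cox8b (chr7:140900447-140900696, minus strand) holds the E-box letters at 19. Cox7a1 (chr7:30183921-30184170, plus strand) holds CCAAT letters at 137 and 74. Atp5md (chr19:47090648-47090897, minus strand) holds TATA letters at 65 and CCAAT letters at 58. Ndufaf1 (chr2:119662835-119663084, minus strand) holds CCAAT letters at 241 and ETS letters at 18. Ndufa8 (chr2:36049339-36049588, minus strand) holds the E-box letters at 158 and NRF1 letters at 30. No match was found in the window of Ndufaf7 (chr17:78936885-78937134, plus strand). The longer windows counted below add 50 bases after the start, which are not printed. In those longer windows Cox8a and Atp5md also held ETS letters, and Cox8b held TATA letters.
Cox6a1: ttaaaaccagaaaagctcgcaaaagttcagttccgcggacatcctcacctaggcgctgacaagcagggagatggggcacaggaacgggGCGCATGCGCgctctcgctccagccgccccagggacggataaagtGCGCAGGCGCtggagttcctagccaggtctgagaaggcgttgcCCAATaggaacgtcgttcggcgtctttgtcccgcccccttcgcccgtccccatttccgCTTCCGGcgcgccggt
Cox8a: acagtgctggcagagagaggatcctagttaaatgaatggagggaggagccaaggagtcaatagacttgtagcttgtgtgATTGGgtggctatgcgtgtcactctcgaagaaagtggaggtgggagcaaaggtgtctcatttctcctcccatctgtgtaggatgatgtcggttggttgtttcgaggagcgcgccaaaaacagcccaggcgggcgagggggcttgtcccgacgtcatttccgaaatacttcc
Cox8b: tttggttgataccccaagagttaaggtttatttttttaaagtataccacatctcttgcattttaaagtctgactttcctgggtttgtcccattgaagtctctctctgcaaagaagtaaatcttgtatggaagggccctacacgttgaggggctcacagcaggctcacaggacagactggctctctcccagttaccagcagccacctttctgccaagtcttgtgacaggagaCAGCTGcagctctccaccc
Cox7a1: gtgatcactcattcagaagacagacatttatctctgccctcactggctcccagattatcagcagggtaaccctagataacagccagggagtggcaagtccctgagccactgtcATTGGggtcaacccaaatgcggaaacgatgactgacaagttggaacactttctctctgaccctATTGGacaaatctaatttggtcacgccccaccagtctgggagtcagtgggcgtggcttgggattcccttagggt
Atp5md: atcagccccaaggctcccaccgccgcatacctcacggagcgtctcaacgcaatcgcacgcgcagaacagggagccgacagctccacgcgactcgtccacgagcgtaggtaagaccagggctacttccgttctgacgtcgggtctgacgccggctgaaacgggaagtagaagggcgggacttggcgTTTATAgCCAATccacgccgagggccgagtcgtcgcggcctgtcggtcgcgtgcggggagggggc
Ndufaf1: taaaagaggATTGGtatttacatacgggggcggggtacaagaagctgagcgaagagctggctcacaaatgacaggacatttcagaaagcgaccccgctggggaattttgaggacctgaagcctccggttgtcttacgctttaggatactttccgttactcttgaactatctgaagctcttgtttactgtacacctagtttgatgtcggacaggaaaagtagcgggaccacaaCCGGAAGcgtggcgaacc
Ndufaf7: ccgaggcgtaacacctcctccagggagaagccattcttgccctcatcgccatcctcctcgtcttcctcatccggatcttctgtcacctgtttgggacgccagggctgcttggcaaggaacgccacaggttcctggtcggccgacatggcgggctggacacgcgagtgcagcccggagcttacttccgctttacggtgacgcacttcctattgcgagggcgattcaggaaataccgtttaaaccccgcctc
Ndufa8: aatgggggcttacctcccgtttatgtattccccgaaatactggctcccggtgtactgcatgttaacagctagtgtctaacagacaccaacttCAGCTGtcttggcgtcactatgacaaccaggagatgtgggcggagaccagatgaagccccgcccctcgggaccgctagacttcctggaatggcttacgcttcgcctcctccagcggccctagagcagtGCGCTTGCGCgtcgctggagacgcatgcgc

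Among the members, 75 of 91 had a promoter window, and mouse chromosome 18 was not used. Windows run from 250 bases before to 50 after the start. NRF1 letters were in 17 members (22.7%) against 7.17% of 17492 protein-coding genes, ETS letters in 19 (25.3%) against 12.9%, and YY1 letters in 10 (13.3%) against 3.57%. The shares for the CCAAT box (44.0% against 42.3%), the TATA box (10.7% against 14.8%), the MEF2 letters (2.67% against 4.01%), the E-box CACGTG (8.0% against 8.91%), the muscle E-box (8.0% against 17.4%) and the hypoxia response core ACGTG, which CACGTG also contains (26.7% against 23.2%), were closer or lower. The members' windows had a median GC content of 59.0% against 56.3%. A match is a description of letters only. Of the 4 tissue isoforms with a window, 0 held NRF1, ETS or YY1 letters. Among 16 measured members with NRF1 letters the median log2 ratio was 0.04, as among the 57 without them (0.04). With ETS letters it was 0.13 over 19 genes and without them 0.02 over 54, and with YY1 letters 0.16 over 10 genes and without them 0.03 over 63.

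Complex I, the NADH dehydrogenase, has core subunits that carry the flavin and iron-sulfur clusters and accessory subunits that surround them. None of the 6 core genes measured here differed by 2-fold, and their median was 0.19. Ndufs7 (3320 on the old array and 2556 on the young, log2 ratio 0.38) and Ndufv1 (3554 and 2737, 0.38), which hold an iron-sulfur cluster and the flavin, had the highest ratios. Ndufs1, the largest iron-sulfur subunit, had the lowest (1502 and 1836, -0.29), and Ndufv2 was next to it (4990 and 6036, -0.27). Ndufs3 (3683 and 3144, 0.23) and Ndufs8 (10439 and 9440, 0.15) lay between. The core genes thus lay on both sides of 0, each within 1.5-fold of equal signal.

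Of the 28 accessory genes of complex I, 27 were measured and 0 differed by 2-fold in either direction, with a median of 0.07 and 11 lower on the old array. The lowest ratio was that of Ndufa8, a twin-cysteine subunit on the intermembrane-space side, at 4920 on the old array and 8294 on the young (log2 ratio -0.75, 1.69-fold higher on the young). Ndufb2 (2060 and 3135, -0.61), Ndufa10 (3563 and 5311, -0.58), Ndufb1 (135 and 192, -0.51) and Ndufs5 (2810 and 3919, -0.48) were also lower on the old array. At the other end were Ndufa12 (6059 and 4085, 0.57), Ndufb8 (4793 and 3385, 0.50) and Ndufb11 (8621 and 6132, 0.49). The remaining accessory genes lay between these, among them Ndufab1, the mitochondrial acyl carrier protein (4079 and 4515, -0.15), and Ndufb5 (5513 and 5484, 0.01). Dimmer probe sets of Ndufab1 above the floor on both arrays gave -0.21 and, at 84.7 on the old array and 229 on the young, -1.44.

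The assembly factors of complex I, which build the complex but are absent from the finished enzyme, had a lower median ratio than the subunits. Their probe sets were also dimmer, with a median signal of 533 on the old array beside 5106 for the subunits. The gap in medians was 0.45 as scaled here, 0.21 after quantile normalization and 0.14 after loess. The part of signal level in this gap was not tested. Of the 8 assembly factor genes, 6 were lower on the old array (75%, beside 47.8% of all genes) and the median was -0.37. Of the 8, 1 was beyond 2-fold (12.5%), a share near the 11.3% of all genes. Ndufaf1, a factor needed for the membrane arm, gave 490 on the old array and 984 on the young (log2 ratio -1.01, 2.01-fold higher on the young). It lay only just beyond 2-fold, and after loess scaling (-0.92) or with an offset in place of the floor (-0.95) it no longer did. Ndufaf7, an arginine methyltransferase acting on a core subunit, was at 353 and 677 (-0.94) and passed 2-fold in 4 of 10 settings, the deposited values among them (-1.07), and Ndufaf2 was at 576 and 922 (-0.68). Ndufaf6 (183 and 247, -0.43) and Ndufaf5 (292 and 363, -0.31) were less far apart. Ndufaf4 did not differ (686 and 687), and Ndufaf3 (1035 and 927, 0.16) and Ndufaf8 (1645 and 1394, 0.24) were higher on the old array.

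Complex II, succinate dehydrogenase, had all 4 genes measured, 0 at 2-fold and 3 lower on the old array, with a median of -0.21. The membrane anchor gene Sdhc was at 2224 on the old array and 3436 on the young (log2 ratio -0.63), and its probe sets ran from -0.92 to -0.63. The flavoprotein gene Sdha was at 4451 and 5370 (-0.27), and the other anchor gene, Sdhd, at 1833 and 2030 (-0.15). Another, dimmer probe set of Sdhd gave 247 and 491 (-0.99). The iron-sulfur gene Sdhb was at 4819 and 4249 (0.18).

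Complex III, the ubiquinol-cytochrome c reductase, and cytochrome c had 9 genes under the symbol rule, all measured, 0 at 2-fold and a median of -0.04. The rule leaves out Cyc1, cytochrome c1 of complex III, which was at 4078 on the old array and 2946 on the young (0.47). Uqcrfs1, the Rieske iron-sulfur protein, had the lowest ratio, with 2350 on the old array and 3922 on the young (-0.74), and the small subunit Uqcr10 followed (2443 and 3609, -0.56). The core genes Uqcrc1 (6346 and 4969, 0.35) and Uqcrc2 (4793 and 4344, 0.14) were higher on the old array. Uqcrb, a small ubiquinone-binding subunit, had the highest ratio (27960 and 18395, 0.60), but its other probe set gave 4599 and 4929 (-0.10), so its 2 probe sets disagree in sign. Cycs, the mobile carrier cytochrome c, was level (9329 and 9567, -0.04).

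The ubiquitous subunits of complex IV, cytochrome c oxidase, had a median of 0.18 over 11 genes, with 0 at 2-fold and 2 lower on the old array. Cox6a1 was furthest from 0, with 23497 on the old array and 12493 on the young (0.91, 1.88-fold higher on the old). Its other probe set gave 10591 and 8251 (0.36), less than 1.5-fold. Cox4i1, the common form of subunit IV, was at 15494 and 12453 (0.32), and Cox5b, a zinc-binding subunit, at 11810 and 9364 (0.33). Cox6b1, which helps to join the enzyme into dimers, was at 14164 and 11567 (0.29), and Cox7a2, the common form of subunit VIIa, at 17091 and 14546 (0.23). By these probe sets, the 4 genes from Cox4i1 to Cox7a2 were all higher on the old array by less than 1.5-fold. Ndufa4, once counted to complex I (8996 and 7918, 0.18), Cox5a (13321 and 11934, 0.16), Cox6c (12192 and 11359, 0.10) and Cox8a (4539 and 4431, 0.03) were closer still to equal signal. The genes lower on the old array by their brightest probe sets were Cox7a2l, known to link complexes III and IV (5608 and 6402, -0.19), and Cox7c, measured at low signal (147 and 157, -0.10). Other probe sets of Cox5a (-0.13 and -0.24), Cox8a (-0.20), Cox6b1 (-0.04) and Cox7a2 (-0.01) had the opposite sign to the brightest. With the mean over probe sets, 4 of the 11 genes were lower on the old array and the median was 0.11. The median turned negative after quantile normalization (-0.26) and loess (-0.10).

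**Figure D2:**
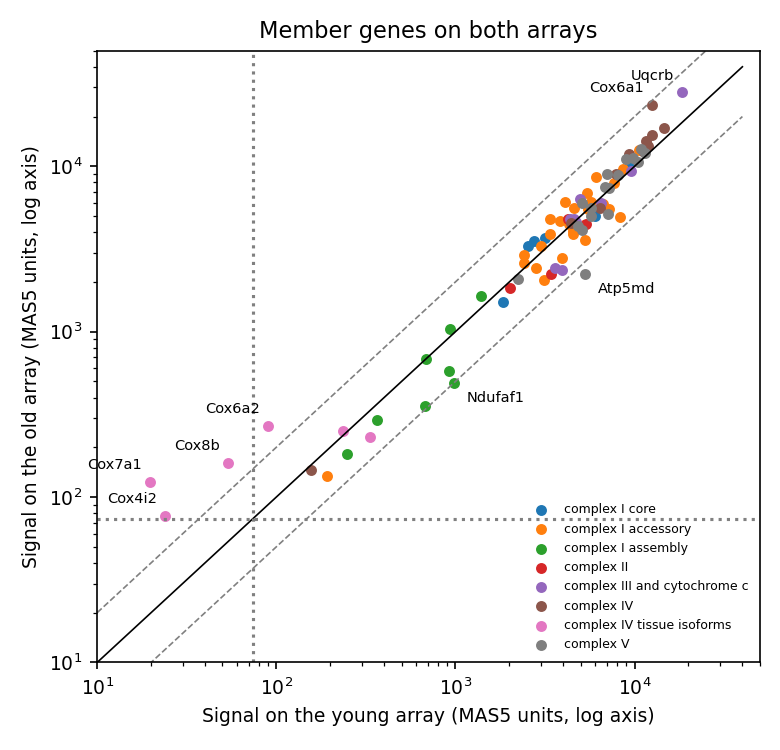
Signal of each measured gene on the young (horizontal) and old (vertical) array, on log axes, coloured by complex; the solid line marks equal signal, dashed lines 2-fold and dotted lines the floor. The bright subunit genes follow the diagonal, and the genes near or beyond 2-fold on the old side are mostly the dim complex IV isoforms at the lower left.

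The isoforms of complex IV limited to certain tissues held both genes that were 2-fold higher on the old array. These are 2 of 6 measured isoforms (33.3%, beside 16.0% of all genes), a share that rests on few genes. Cox6a2, the heart and skeletal muscle form of subunit VIa, was at 269 on the old array and 90.4 on the young (log2 ratio 1.58, 2.98-fold). By this probe set it was above the floor on both. Its other probe set was below the floor on both arrays (54.6 and 20.8), so the call rests on 1 probe set. Cox8b, the muscle and brown fat form of subunit VIII, was at 161 and, below the floor, 54.0, so the old signal was higher by at least 2.19-fold. Cox7a1, the muscle form of subunit VIIa, was at 124 and, below the floor, 19.7, which gives at least 1.68-fold. These muscle forms were thus above the floor on the old array, and 1 of them also on the young.

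The isoforms of other tissues were within 2-fold or not measurable. Cox4i2, a lung form of subunit IV, was barely above the floor on the old array (76.8, at least 1.04-fold higher) and below it on the young (24.1). The testis forms Cox6b2 (229 on the old array and 332 on the young, -0.53) and Cox8c (251 and 237, 0.09) were within 2-fold, and Cox7b2, also of testis, was below the floor on both. Ndufa4l2, the hypoxia-induced relative of Ndufa4, was below the floor on both arrays. Of the 8 tissue isoforms, 6 were measured, with a median of 0.42, but only 3 were above the floor on both arrays. With a lower floor Cox7a1 (2.58) and Cox4i2 (1.6) also passed 2-fold and the median was 1.5, since the low young signals then count for more, and with an offset in place of the floor it was 1.01.

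Striated muscle markers moved with the muscle isoforms. All 11 cardiomyocyte markers were above the floor on the old array, 9 of them higher there by 2-fold or more, and their summed signal was 21583 on the old array and 583 on the young. Actc1, cardiac actin, was at 7120 on the old array and below the floor on the young (46.4). Myl7, an atrial myosin light chain, was at 3864 and, below the floor, 6.83, and Myh6, the cardiac myosin heavy chain, at 1347 and 14.8. Mb and Ryr2 were within 2-fold by their bounds. Of the 7 skeletal muscle markers, 2 were measured (Acta1 at 213 on the old array and Mylpf at 102), with a summed signal of 315 and 98.8, and Ckm, Tnnt3, Myh1, Myh4 and Tnnc2 were below the floor on both arrays. None of the 5 brown fat markers on the array was above the floor on either, Ucp1 and Cidea among them. Pericyte and smooth muscle markers likewise favoured the old array, with a summed signal of 25006 and 490. The part of any of these cell types in the isoform signals was not tested.

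**Figure D3:**
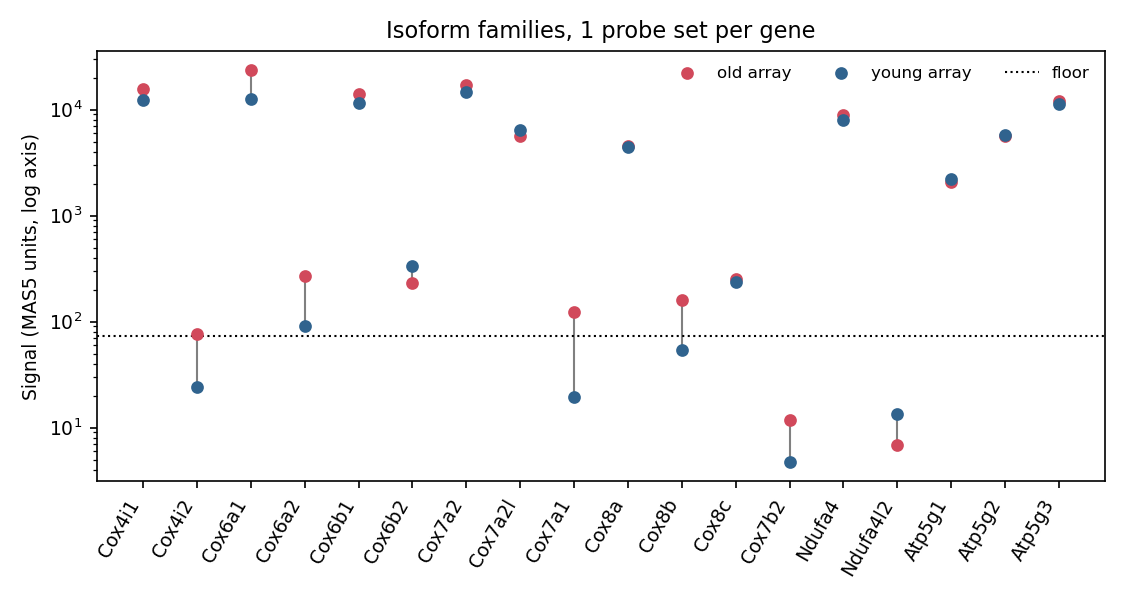
Signal on the old and young array (log axis) for genes of the isoform families, with 1 probe set per gene; the dotted line is the floor, and levels of different genes are not comparable. Apart from Cox6a1, the points of the ubiquitous forms and of the 3 subunit c genes lie close together, while Cox6a2, Cox7a1 and Cox8b are above the floor on the old array, and Cox7a1 and Cox8b below it on the young.

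Complex V, the ATP synthase, had 17 genes measured, with a median of 0.03. By 2-fold, 0 were higher on the old array and 1 on the young (5.88%, beside 11.3% of all genes). A subdivision by position in the enzyme was made after the data had been seen. The catalytic F1 part, with Atp5a1 (5983 on the old array and 5092 on the young, 0.23), Atp5b (12810 and 10863, 0.24) and Atp5c1 (11107 and 9014, 0.30), had a median of 0.23 over 5 genes. Other probe sets of Atp5a1 gave -0.02 and -0.03, and with the mean over probe sets the F1 median was 0.06. The peripheral stalk had a median of 0.10 over 4 genes, with Atp5j highest (9043 and 6996, 0.37). The c-ring genes, which encode the same mature protein, were level: Atp5g1 at 2075 and 2226 (-0.10), Atp5g2 at 5586 and 5714 (-0.03) and Atp5g3 at 12061 and 11424 (0.08).

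The small membrane subunits of complex V, by contrast, had a median of -0.31 over 5 genes. Atp5md, a small subunit that supports pairing of ATP synthases, gave 2231 on the old array and 5304 on the young (log2 ratio -1.25, 2.38-fold higher on the young). It was the only subunit gene beyond 2-fold as scaled here, and it rests on 1 probe set. The call held in 10 of 10 settings with ratios from -1.39 to -1.24, but not all of these could change it. The settings that alter the choice of probe sets repeat its value, and its signals are far above the floor. Atp5l (5172 and 7104, -0.46) and Atp5mpl (4120 and 5105, -0.31), also small membrane subunits, were lower on the old array, while Atp5k (7500 and 6847, 0.13) and Atp5j2 (8816 and 8133, 0.12) were slightly higher.

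The values just inside and just outside 2-fold show how few genes are near it. On the old side Cox6a2 (1.58) and Cox8b (1.13 as a bound) lay inside, and Cox6a1 (0.91) and Cox7a1 (0.75 as a bound) outside. On the young side Atp5md (-1.25) and Ndufaf1 (-1.01) lay inside, and Ndufaf7 (-0.94) and Ndufa8 (-0.75) outside.

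Probe sets of the same gene are the only repeated measurement here, and they describe the probes, not the mice. For 46 members several probe sets reached the floor on both arrays (116 probe sets), and the SD within a gene was 0.27 on the log2 ratio. Over all 4514 such genes this SD was 0.42. For 28 of the 46 members all probe sets had the same sign. The SD between members was 0.44 over all 88 measured and 0.36 over the 74 measured subunits. Both sets include genes with 1 probe set, so these SDs are not directly comparable with that within a gene. The widest disagreement was for Ndufs4, an accessory subunit of complex I, with 196 on the old array and 117 on the young on 1 probe set (0.75) and 321 and 476 on another (-0.57). Of the 88 measured members, 19 are represented by probe sets that can match several transcripts.

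The difference in medians between the subunits and the factors that build them did not change sign with the setting. Over 74 measured subunit genes the median was 0.08, which is 0.45 above that of the complex I assembly factors. This difference ranged from 0.14 to 0.45 over the 10 settings and was positive in all 10. Not all settings could change it, since the deposited values and equal trimmed means differ from the scaling used here by a constant per array. The median of the complex IV subunits was 0.56 above that of the assembly factors (0.17 to 0.56). Within complex V the F1 part was 0.54 above the small membrane subunits (0.23 to 0.54). The difference between subunits and all genes was positive in 6 of 10 settings (-0.19 to 0.07).

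**Figure D4:**
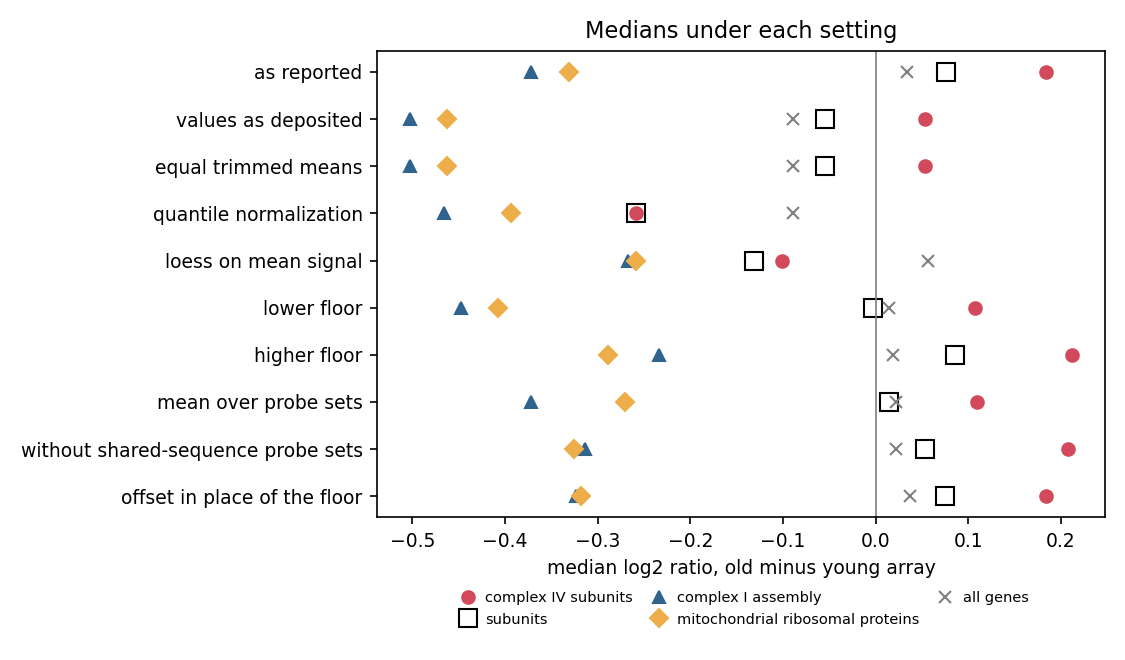
Median log2 ratio, old minus young, of 5 gene groups (horizontal) under each of 10 processing settings (rows); symbols mark the groups and the vertical line equal signal. The complex I assembly factors and the mitochondrial ribosomal protein genes lie to the left of the subunits in every row.

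Genes that act with the respiratory chain but fall outside the symbol rule were described by lists. Of the 9 electron transfer genes, 1 was 2-fold higher on the young array (11.1%, beside 11.3% of all genes), and the list's median was 0.01. That gene was Gpd2, the mitochondrial glycerol-3-phosphate dehydrogenase (746 on the old array and 1817 on the young, -1.29). Aifm1, an apoptosis-inducing factor needed for complex I (1035 and 2017, -0.96), and Etfa, a flavoprotein that takes electrons from fatty acid oxidation (1409 and 2458, -0.80), were lower on the old array by less. Sqor, the sulfide quinone oxidoreductase, was at 1945 and 1240 (0.65).

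Assembly factors of the complexes outside the rule had a median of -0.32. Of 41 measured, 29 (70.7%) were lower on the old array, beside 47.8% of all genes. On the old array 0 were 2-fold higher, and on the young 3 were (7.32%), a smaller share than the 11.3% of all genes. These 3 were Sdhaf4, a complex II factor (1238 and 3187, -1.36), Cox19, a copper delivery factor of complex IV (846 and 1985, -1.23), and Tmem126b of the complex I assembly machinery (120 and 245, -1.03), which fell short of 2-fold after loess (-0.98) and with the offset (-0.85). In the deposited values 6 of the list passed 2-fold on the young array. Coa7 (342 and 653, -0.93) was next. Timmdc1, also of complex I assembly, went the other way (505 and 266, 0.92). The subunits' median was above that of this list by 0.40 (0.11 to 0.40 over the settings, lowest after loess). This list was also dimmer than the subunits, with a median signal of 732 on the old array.

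Coenzyme Q synthesis genes, which make the electron carrier between complexes, had a median of -0.32 over 12 genes. Of these, 9 were lower on the old array (75%, beside 47.8% of all genes). Only 1 was 2-fold higher on the young array (8.33%, a smaller share than the 11.3% of all genes). That gene was Coq6, a flavin-dependent hydroxylase of the ring (336 and 1200, -1.84). Pdss2 (209 and 347, -0.73) and Coq8a (115 and 189, -0.71) were within 2-fold. The subunits' median was 0.40 above that of this list (0.10 to 0.40 over the settings, lowest after loess). Its probe sets were dimmer too, with a median signal of 364 on the old array.

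The tricarboxylic acid cycle genes, which supply NADH and succinate, had a median of 0.00 over 15 genes, and 0 were 2-fold apart as scaled here. Dlst, a subunit of the 2-oxoglutarate dehydrogenase complex, was at 1407 and 2785 (-0.99), but its probe sets ran from -0.99 to 0.21, and Pdha1 of pyruvate dehydrogenase was at 2583 and 1496 (0.79). Of the 20 outer membrane, import and matrix genes, 0 were 2-fold apart with a median of -0.11, the furthest being Tomm40, an import channel (1299 and 2246, -0.79), and Immt, which shapes the cristae (846 and 1388, -0.71). The carriers had 8 of 12 genes measured and 1 of them 2-fold higher on the old array (12.5%, beside 16.0% of all genes). It was Slc25a23, a calcium-dependent ATP-magnesium carrier (217 and 92.2, 1.23, and 0.97 with the offset). The uncoupling proteins Ucp1 and Ucp3 were below the floor on both arrays.

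Genes of mitochondrial DNA maintenance had a median of 0.01 over 17 genes, with 2 higher on the old array by 2-fold (11.8%, beside 16.0% of all genes). They were Mgme1, a nuclease (550 and 208, 1.41), and Polg2, the accessory subunit of the mitochondrial polymerase (359 and 153, 1.24). The mitochondrially encoded ND5, a core subunit of complex I outside the rule and picked after its values had been seen, was at 18284 on the old array and 20017 on the young (-0.13). Among the regulators of mitochondrial biogenesis, 13 of 17 were measured, with a median of -0.02. Esrrb (285 and 76.8, 1.89) and Sirt3 (264 and 127, 1.05) were 2-fold higher on the old array, 15.4% of those measured beside 16.0% of all genes. The Sirt3 ratio fell short of 2-fold in the deposited values (0.92), and the Mgme1 ratio with the higher floor (0.17 as a bound). Ppargc1a, a coactivator of respiratory genes, and Ppara, Esrrg and Perm1 were below the floor on both arrays.

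Other gene groups are large enough to be set beside the members, and they were chosen after the data had been seen. The mitochondrial ribosomal protein genes, which translate the mitochondrially encoded subunits, had a median of -0.33 over 76 genes, with 58 lower on the old array (76.3%) and 3 of 76 higher by 2-fold on the young (3.95%), beside 47.8% and 11.3% of all genes. The subunits' median was 0.41 above that of these genes (0.13 to 0.41 over the settings, lowest after loess), which had a median signal of 1137 on the old array. The cytosolic ribosomal protein genes had a median of 0.59 over 47 measured genes, with 3 higher by 2-fold on the old array (6.38%, beside 16.0% of all genes). The median of the members lay between these.

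**Figure D5:**
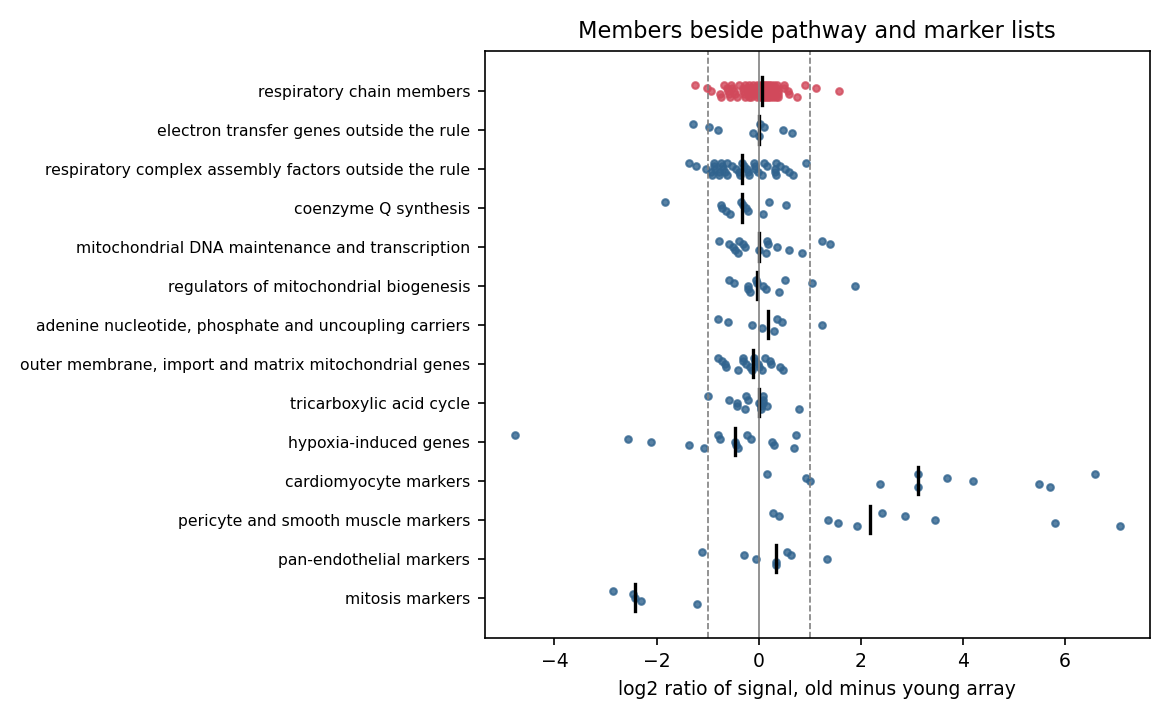
Log2 ratio of signal, old minus young, of the respiratory chain genes (red), pathway lists and marker lists (blue), with 1 point per measured gene, black bars for medians and dashed lines at 2-fold; points of genes above the floor on 1 array are lower bounds. The mitochondrial lists lie mostly within the dashed lines, while the cardiomyocyte and mitosis markers lie far to the right and left.

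Hypoxia-induced genes, which are known for a shift from respiration to glycolysis, were lower on the old array in 12 of 16 measured genes, with 5 beyond 2-fold (3 to 6 over the settings) and a median of -0.46. These are 75% and 31.2% of the list, beside 47.8% and 11.3% of all genes. The other 4 were within 2-fold on the opposite side, namely P4ha1, a collagen prolyl hydroxylase (1722 and 1030, 0.74), Egln1, a prolyl hydroxylase (1833 and 1134, 0.69), Kdm3a, a histone demethylase (0.30), and Ldha, lactate dehydrogenase A (0.26). Egln3, a prolyl hydroxylase, was below the floor on the old array (60.3) and at 2014 on the young, at least 27.3-fold higher. Vegfa, the endothelial growth factor, was at 213 and 917 (-2.11, and -0.91 as a bound with the higher floor), Slc2a1, a glucose carrier, at 1191 and 3061 (-1.36), and Pgk1, a glycolytic enzyme, at 4443 and 9383 (-1.08). The respiratory chain members known as hypoxia-induced, Cox4i2 and Ndufa4l2, were below the floor on the young array. On the old array Ndufa4l2 was also below it and Cox4i2 barely above it (76.8), so neither gives a direction. A part of hypoxia in these values was not tested.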

How the data were processed

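The deposited intensity values were made with MAS5 in GCOS 1.4, per the submitters' processing notes, and are linear, with 1 value per probe set. No genome build is given in the sources used here. Their mean, trimmed by 2% on either side, was 500.003 for each array. Of 45101 probe sets, 64 controls were left out. The platform annotation of 2016 gave 34945 others 1 symbol, 932 several and 9211 none. Arrays were scaled by 1.05 (old) and 0.956 (young), and each gene took the values of its probe set of highest mean log2 signal. No test was possible with 1 array per group.

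Named genes were members at 2-fold, members of isoform families, each group's highest and lowest ratio, neighbours of the 2-fold limit, up to 4 genes per list and the 6 brightest members. Other genes named were chosen after their values were seen. The members and lists were chosen with earlier results of these data known. Alternatives were the deposited values, equal trimmed means, quantile normalization, loess (span 0.4), floors at the 25 and 75 percentiles, the mean over probe sets, no shared-sequence probe sets and an offset of 0.5 of the floor. Equal trimmed means in effect repeat the deposited values, whose trimmed means were already equal. The ribosomal protein groups, the bright-gene level, the parts of complex V and the YY1, CCAAT box, TATA box, MEF2 and muscle E-box letters were added after the data had been seen. The procedure was tested on simulated data. Tools were Python 3.11.15, numpy 2.4.6, pandas 2.3.3, statsmodels 0.14.6 and matplotlib 3.10.9.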

Additional observations from a re-analysis of the deposited data

How the results depend on the processing

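No paired analysis was possible because each group has 1 array, and no array could be left out. Under the 9 alternatives, 765 of 775 values of member genes stayed on the same side of 2-fold, 2 no longer passed it and 8 newly passed it, and 0 values beyond 2-fold changed sign. Of all 775 values, 96, in 32 of 88 genes, had the opposite sign to the reported ratio, 27 of them after quantile normalization. Atp5md passed 2-fold in 10 of 10 settings, Cox6a2 and Cox8b in the 9 in which they were measured, and Ndufaf1 in 8. These counts are not independent checks. As scaled here each of these genes had 1 measured probe set without shared sequence, so the settings that alter the choice of probe sets repeat its value. The count on the old array was 2, with 4 under the lower floor, 3 with the offset, 0 under the higher floor, where the muscle isoforms were not measured, and 0 over subunits only. The count on the young array was 2, with 4 after quantile normalization, 1 after loess, 1 with the offset and 1 over subunits only. It was 3 in the deposited values, with equal trimmed means and under the lower floor. The median of complex IV, 0.18, became -0.26 after quantile normalization, and the cause was not tested. The median of the tissue isoforms, 0.42, became 1.5 under the lower floor and 1.01 with the offset, since both change how young signals below the floor count. Over all genes the higher floor, which leaves fewer genes, gave 988 (old) and 604 (young) calls against 1937 and 1366. Signal over background limits the tissue isoforms, of which 3 of 8 were above the floor on both arrays. As a check of RNA quality, Actb had a 3′ to 5′ signal ratio of 1.32 (old) and 1.2 (young), and Gapdh of 0.718 and 0.806.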
